A study of Mus musculus with 6 samples.

Results

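Crct1, Lce1g, Lce1l, Kprp and Sprr1a, 5 genes of the epidermal cornified envelope, were followed in primary mouse embryonic fibroblasts (MEFs). They are 5 of the 43346 genes in the deposited count table, found by matching its Ensembl identifiers to GENCODE M21 symbols. They were chosen because several of them rose from near the detection floor with erastin. Their differences between erastin and DMSO are therefore descriptions, given with no test, and the choice set no numerical threshold. Libraries came from C57BL/6 MEFs at passage 9, harvested 24 h after exposure to 3 µM erastin or to the solvent DMSO, with 3 libraries per group. All cells grew in serum-containing medium with 2-mercaptoethanol. MEFs are fibroblasts cultured from mouse embryos, and erastin blocks the cystine/glutamate antiporter and is used to induce ferroptosis. The labels call the experiment triplicated but do not say whether the replicates were separate embryos or cultures, so p-values measure only the spread between these libraries, which may be technical.

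The cornified envelope is the layer of cross-linked protein that replaces the plasma membrane of keratinocytes as they die at the surface of the skin. Most of its precursors are encoded side by side in the epidermal differentiation complex, which holds the late cornified envelope (LCE) genes, the small proline-rich (SPRR) genes, loricrin, involucrin, filaggrin and many S100 genes. Transglutaminases join these precursors, and the genes are best known for expression in stratified epithelia rather than in fibroblasts.

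All 5 genes lie on chromosome 3, on the minus strand, within 531.7 kb that hold 30 protein-coding genes in GENCODE M21 (GRCm38, the assembly that mm10 names). Sprr1a (ENSMUSG00000050359.7, chr3:92483952-92485895) encodes a small proline-rich cross-linking precursor. Lce1g (ENSMUSG00000027919.5, chr3:92750148-92752338) and Lce1l (ENSMUSG00000046676.4, chr3:92849949-92851286) encode late cornified envelope proteins. Kprp (ENSMUSG00000059832.4, chr3:92823074-92827247) encodes the keratinocyte proline-rich protein, and Crct1 (ENSMUSG00000027913.5, chr3:93014205-93015687) a small cysteine-rich protein. Annotated transcripts had 2 exons, except that 1 of the 2 Crct1 transcripts had 3. No other annotated gene overlapped any of the 5. Kprp and Lce1l are direct protein-coding neighbours, 22701 bases apart.

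Upstream sequences show how the SPRR and LCE1 genes differ next to their start sites. RefSeq windows (GRCm38.p6) were matched for 3 of the 5 genes and for 45 of 50 envelope genes of the complex. The 250 bases before the start are printed 5′ to 3′ for those 3 genes, and for Sprr2k and Lce1h because they alone among the other envelope genes passed the test described further on. Capitals mark the letters TGANTCA, the core bound by AP-1 (the FOS and JUN family of transcription factors), and the TATA-type letters ATAAAA. The windows are chr3:92485882-92486131 (minus strand) for Sprr1a, chr3:92432332-92432581 (plus strand) for Sprr2k, chr3:92752339-92752588 (minus strand) for Lce1g, chr3:92851287-92851536 (minus strand) for Lce1l and chr3:92765066-92765315 (minus strand) for Lce1h.
Sprr1a: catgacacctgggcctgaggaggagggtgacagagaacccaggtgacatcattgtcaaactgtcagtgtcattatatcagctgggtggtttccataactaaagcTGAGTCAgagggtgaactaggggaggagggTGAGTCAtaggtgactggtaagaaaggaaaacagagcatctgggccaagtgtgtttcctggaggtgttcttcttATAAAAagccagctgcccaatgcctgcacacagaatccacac
Sprr2k: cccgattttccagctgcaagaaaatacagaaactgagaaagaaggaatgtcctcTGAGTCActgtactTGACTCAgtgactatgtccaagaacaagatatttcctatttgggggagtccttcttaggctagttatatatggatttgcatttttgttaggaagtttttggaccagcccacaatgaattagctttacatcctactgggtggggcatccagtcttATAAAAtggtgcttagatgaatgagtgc
Lce1g: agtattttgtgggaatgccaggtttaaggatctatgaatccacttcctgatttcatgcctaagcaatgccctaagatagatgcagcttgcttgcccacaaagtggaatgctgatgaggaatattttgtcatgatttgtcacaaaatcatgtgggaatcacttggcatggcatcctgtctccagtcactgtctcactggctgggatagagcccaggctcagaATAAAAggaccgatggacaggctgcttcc
Lce1l: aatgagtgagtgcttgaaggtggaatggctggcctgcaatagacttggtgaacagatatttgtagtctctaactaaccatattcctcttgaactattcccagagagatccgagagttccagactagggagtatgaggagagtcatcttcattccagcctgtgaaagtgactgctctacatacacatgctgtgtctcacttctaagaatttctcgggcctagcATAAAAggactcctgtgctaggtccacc
Lce1h: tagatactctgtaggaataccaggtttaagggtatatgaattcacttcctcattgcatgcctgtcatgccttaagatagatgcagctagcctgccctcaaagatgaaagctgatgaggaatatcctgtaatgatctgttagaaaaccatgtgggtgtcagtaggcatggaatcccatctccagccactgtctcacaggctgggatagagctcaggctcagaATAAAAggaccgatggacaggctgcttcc

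The AP-1 letters stood at 2 places in Sprr1a, the first base of each 146 and 116 bases before the start. In Sprr2k they stood at 2 places, 196 and 182 bases before it. Starts here are those of RefSeq. The RefSeq start of Sprr1a lies inside the GENCODE gene, which ends at 92485895, so its distances are not those from the GENCODE start. The Lce1g and Lce1l windows directly adjoin their GENCODE genes. The windows of Lce1g, Lce1l and Lce1h held none. Across both strands, TGANTCA occurred in 9 of 14 SPRR windows (64.3%), in 0 of 13 LCE1 windows, in 0 of 6 LCE3 windows and in 8 of the 12 remaining envelope windows (66.7%), against 6.75% of all 32851 windows of this length in the table. Of the envelope windows with a match, those of Sprr1b, Crnn, Flg2, Flg and Tchhl1 held TGAATCA and that of Rptn held TGATTCA. The others held TGAGTCA or TGACTCA. The share of all windows covers every form of TGANTCA. Genes with TGAGTCA included Sprr2d, Sprr2e and Sprr2i, with 0 reads in every library. Flg, Crnn and Rptn, with 1 read each in all, held only the other forms. The TATA-type letters, searched on both strands, occurred in 12 of 13 LCE1 windows (92.3%) and 7 of 14 SPRR windows, against 17.0% of all windows. In Lce1g and Lce1h they began 29 bases before the start, and in Lce1l 28 bases before it. The antioxidant response element core TGACNNNGC was found in Sprr1a, where it overlapped the AP-1 letters that begin 146 bases before the start, and in 10.2% of all windows. The C/EBP-ATF letters TGATGNAA were found in none of the 3 windows of the genes described and in 3.45% of all windows. Of the last 100 bases before the start, compared without gaps, Lce1h shared 90 with Lce1g. Lce1i shared 85, Lce1c 83 and Lce1e 78, and these 3 genes had at most 1 read over all libraries. The motifs were picked after the expression values were known, and such a match or its absence describes letters in a window and nothing about a factor.

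Libraries held 13333911 to 18505571 counts with DMSO and 16800789 to 20509970 with erastin. Levels are given as CPM, read counts brought to a common library size with TMM (trimmed mean of M-values) factors, and 3 reads, taken as the floor, were worth 0.14 to 0.234 CPM depending on the library. Of 14000 genes tested, 21.6% were higher with erastin and 21.5% lower past the threshold, an adjusted p-value of less than 0.05 in edgeR's quasi-likelihood fit. Their median log2 fold change was -0.0014. Reads from PCR without molecular barcodes are not independent molecules, so floors and counting intervals cover counting error only.

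Crct1 was the most abundant of the 5 genes in both groups. DMSO replicates 1 to 3 held 37, 53 and 26 of its reads, and erastin replicates 1 to 3 held 1965, 1610 and 1005. Levels were 2.80, 2.94 and 2.02 CPM with DMSO and 91.5, 96.4 and 52.1 CPM with erastin. The lowest erastin library was 17.7 times the highest DMSO library, and erastin replicate 3 lay well under the other 2. The fitted log2 fold change was 4.93 (SE 0.26), a 30.5-fold difference.

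Sprr1a was also measurable without erastin. It had 34, 10 and 11 reads in DMSO replicates 1 to 3 and 459, 272 and 224 reads in erastin replicates 1 to 3, or 2.57, 0.554 and 0.856 CPM against 21.4, 16.3 and 11.6 CPM. The groups did not overlap, and the lowest erastin library was 4.52 times the highest DMSO library. The fitted log2 fold change was 3.67 (SE 0.42). DMSO replicate 1 stood above the other DMSO libraries, and without it the log2 fold change was 4.57.

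Lce1g was at the floor in DMSO, where all 4 of its reads came from replicate 1. Erastin replicates 1 to 3 had 190, 119 and 80 reads, or 8.85, 7.12 and 4.15 CPM. The ratio of pooled reads, scaled by library size, was 74.7 (exact binomial 95% interval 28.9 to 275, counting error only). Its fitted log2 fold change, which depends on the prior count of the fit, went from 6.08 to 9.89 without DMSO replicate 1, so the size of the rise rests on those 4 reads.

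Lce1l had 0 reads in all 3 DMSO libraries and 42, 22 and 21 reads in erastin replicates 1 to 3. With erastin it stood at 1.96, 1.32 and 1.09 CPM, at least 6.96-fold higher than a floor of 3 reads per DMSO library. Kprp had 0, 3 and 0 reads with DMSO and 62, 79 and 19 with erastin, or 2.89, 4.73 and 0.985 CPM in erastin replicates 1 to 3. Its ratio of pooled reads was 41.0 (exact binomial 95% interval 13.8 to 201, counting error only). Its fitted log2 fold change went from 5.29 to 8.58 without DMSO replicate 2, which held all 3 DMSO reads. Kprp was the most variable of the 5 among erastin libraries, with a coefficient of variation of 65.3% against 29.7% to 35.4% for the others.

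**Figure D1:**
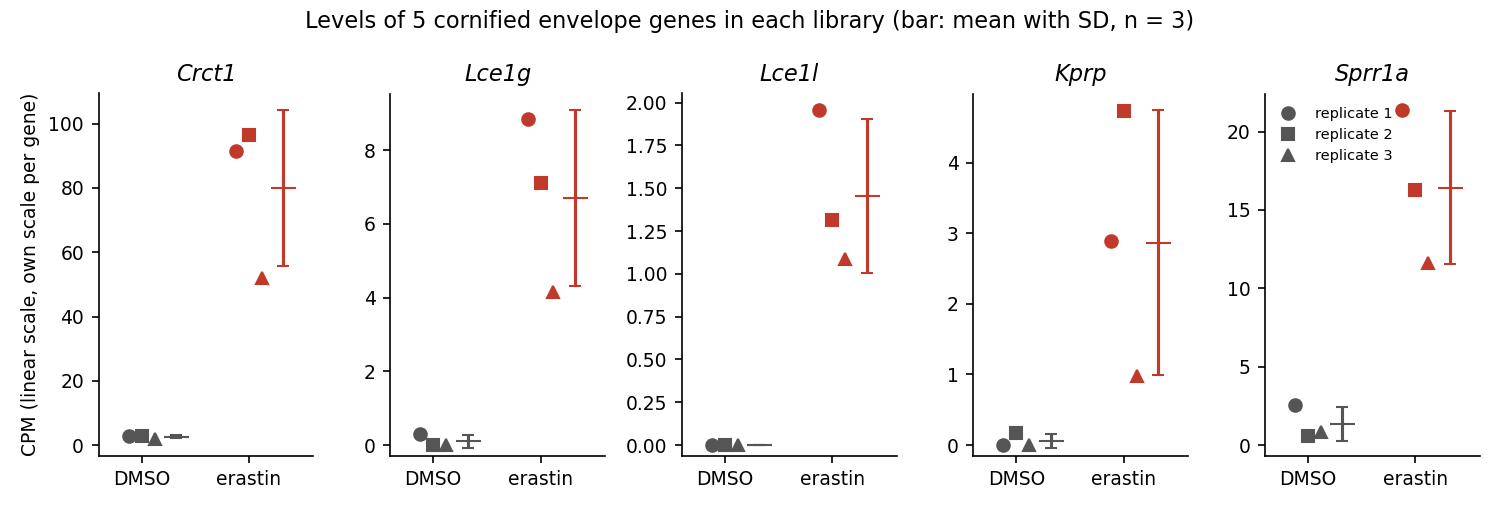
CPM of each of the 5 genes in every library, on a linear axis of its own per gene; circles, squares and triangles are replicates 1, 2 and 3, and bars give the mean with SD (n = 3 per group). The 3 erastin points lie above the 3 DMSO points for each gene, and the triangle, erastin replicate 3, is the lowest erastin point in all 5 panels.

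For all 5 genes the 3 erastin libraries lay above the 3 DMSO libraries; among all genes tested this held for 26.7%. All 5 passed the filter on low counts, but only Crct1 would have done so on its DMSO libraries alone. Lce1g, Lce1l and Kprp, with at most 4 reads in any DMSO library, passed only because they were high with erastin and so had to differ. Sprr1a reached the minimum in 2 of the 3 DMSO libraries and needed an erastin library to pass. All 5 had a log2 fold change of at least 3, as did 0.364% of genes tested. Because the genes were chosen on this contrast, nothing is read from these counts.

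Levels can be set against each other only per length. In CPM per kilobase of merged exons the order with erastin was Crct1 (65.8 to 122 over the 3 libraries), Sprr1a (14.4 to 26.5), Lce1g (4.48 to 9.56), Lce1l (1.63 to 2.92) and Kprp (0.361 to 1.73). Ranges of neighbours in this order did not overlap, except those of Lce1l and Kprp. With DMSO, mean levels per kilobase were 3.27 for Crct1, 1.65 for Sprr1a, 0.109 for Lce1g and 0.0203 for Kprp. Together the 5 genes took 2.88 to 5.67 CPM with DMSO and 70.0 to 127 CPM with erastin. Crct1 made up 49.3% to 80.3% of that sum in DMSO and 72.3% to 76.6% in erastin libraries.

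Reads that match more than 1 gene could blur the LCE1 values, since the handling of such reads by the counting is not given in the sources used here. Of the 50-base windows of the Lce1g transcript 18.4% also occurred in a transcript of another gene, most often Lce1j or Lce1e, and 9.7% of those of Lce1l. At 100 bases the shares were 1.7% and 0.0%. Crct1, Kprp and Sprr1a shared no window at either length. Lce1j and Lce1e, the genes most like Lce1g in this respect, had 0 reads in all 6 libraries.

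Few other genes of the complex were counted often enough to test. A list of 50 envelope genes was taken from it, 45 of them beside the 5 described. Between 8 and 13 of the 50 genes, the 5 chosen ones included, had at least 1 read in a DMSO library and between 20 and 24 in an erastin library. Of all genes in the table, 42.8% to 46.9% had a read in a DMSO library and 45.1% to 48.9% in an erastin library. Of the 45 other genes 17 had no read in any library, and the filter removed 40 in all, with at most 18 reads in any library. Of the 5 that could be tested 2 were higher, Sprr2k and Lce1h, and 0 lower (edgeR), with a median log2 fold change of 1.35. At an unadjusted p-value under 0.05 (edgeR), 3 were higher and 0 lower. DESeq2 gave 8 of the 45 genes an adjusted p-value and called 4 higher and 0 lower, Lce1f and Sprr1b besides Sprr2k and Lce1h. Among all genes tested 21.6% were higher and 21.5% lower. Envelope genes near 0 with DMSO could enter the test only by being high with erastin, as Lce1h did, so the direction of this count is partly set by the filter. Of the 5, Sprr2k alone would have passed the filter in each group by itself. Of the 578 genes in the whole table that needed the erastin libraries in this way, 22.3% were higher and 0 lower.

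Sprr2k, another small proline-rich gene, had more reads than any other envelope gene in each DMSO library. It rose from 8.08 ± 0.257 to 20.6 ± 3.08 CPM (n = 3, ± SD). The log2 fold change was 1.35 (SE 0.17; adjusted p by edgeR = 1.71e-05). Its reads numbered 107, 141 and 107 with DMSO and 512, 336 and 342 with erastin. Lce1h, the direct neighbour of Lce1g, had 0, 4 and 0 reads with DMSO and 37, 30 and 31 with erastin, and rose from 0.0739 ± 0.128 to 1.71 ± 0.095 CPM (n = 3, ± SD). The log2 fold change was 4.19 (SE 1.02; adjusted p by edgeR = 0.00123). Without DMSO replicate 2, which held all 4 DMSO reads, it was 7.84, and the pooled ratio was 18.8 (exact binomial 95% interval 7.12 to 70.4, counting error only). Its transcript shared 19.9% of 50-base windows with other genes, mainly Lce1i. Lce1h reached the filter's minimum in none of the DMSO libraries, so a gene like it could be tested only if it was higher with erastin, and its p-value is limited by that. Both genes passed in all 13 alternatives.

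The 3 other tested envelope genes did not pass. Ivl, which encodes involucrin, an early scaffold of the envelope, had 13, 4 and 4 reads with DMSO and 57, 43 and 6 with erastin (a log2 fold change of 1.89 with SE 0.80; adjusted p by edgeR = 0.068). Erastin replicate 3 lay within the DMSO range. Ivl passed without that library (adjusted p by edgeR = 0.014, 2.39 on a log2 scale) and without DMSO replicate 1 (0.0401 and 2.78). Sprr3 stood at 1.33 ± 0.673 and 1.38 ± 0.729 CPM (n = 3, ± SD; adjusted p by edgeR = 0.941), and Tchh, the hair follicle protein trichohyalin, at 0.983 ± 0.816 and 2.36 ± 0.603 CPM (adjusted p by edgeR = 0.152). Sprr1b and Lce1f, named after their values were seen, passed without the filter on low counts and with DESeq2. Sprr1b had 0 reads with DMSO and 11, 17 and 10 with erastin (at least 3.27-fold higher than the floor; adjusted p = 0.00133 with edgeR and no filter, 0.0023 with DESeq2). Lce1f had 1 DMSO read and 18, 5 and 10 erastin reads (adjusted p = 0.0241 and 0.0262 in the same order).

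Direct neighbours of the 5 genes did not all follow them. Lce1h, beside Lce1g, was higher as given above, while Sprr3, beside Sprr1a, did not pass. Lce1k, beside Kprp, and Sprr4, on the other side of Sprr1a, had 0 reads in every library. Gm38119, on the other side of Lce1g, had 1 read, in erastin replicate 1. 2310050C09Rik, beside Lce1l, had 9 reads in erastin replicate 3 and 0 in every other library. Lce3f and Lce1m, on either side of Crct1, had 4 and 8 reads over all 6 libraries; Lce1m lies 2122 bases from Crct1 and had 2, 5 and 1 reads with erastin. Loricrin (Lor), the most abundant protein of the epidermal envelope, had 5, 3 and 0 reads with DMSO and 3, 3 and 0 with erastin. Filaggrin (Flg), which bundles keratin filaments, had 1 read in all.

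**Figure D2:**
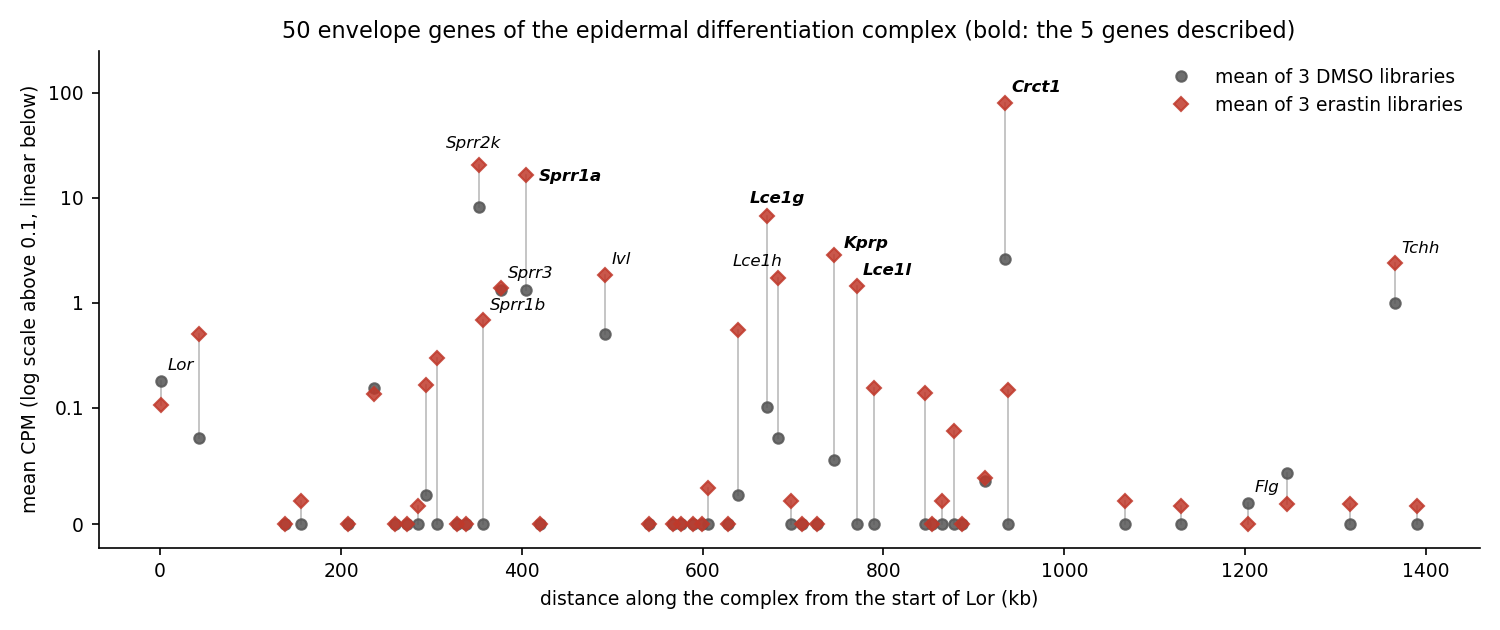
Mean CPM of 50 envelope genes with DMSO (grey circles) and erastin (red diamonds) against distance in kb along the complex from the start of Lor; the vertical axis is logarithmic above 0.1 and linear below, and grey lines join the 2 means of a gene. Crct1 is the highest point at 80.0 CPM with erastin, and many genes between the labelled ones sit at 0 in both groups.

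S100 genes flank the envelope genes in the complex and encode calcium-binding proteins, of which S100a10 and S100a11 are also joined to the envelope. Of 13 genes 9 were tested, 1 was higher and 5 were lower (median log2 fold change -0.28; background 21.6% higher and 21.5% lower). S100a7a, a mouse relative of psoriasin, had 3, 12 and 0 reads with DMSO and 108, 87 and 47 with erastin, and rose from 0.297 ± 0.338 to 4.22 ± 1.55 CPM (n = 3, ± SD). The log2 fold change was 3.68 (SE 0.72; adjusted p by edgeR = 0.000525), and 5.11 without DMSO replicate 2, which held most of the DMSO reads. It too needed the erastin libraries to pass the filter. S100a13 fell from 23.2 ± 3.55 to 7.15 ± 0.301 CPM, which is -1.69 on a log2 scale (SE 0.17; adjusted p by edgeR = 1.6e-06), and S100a16 and S100a4 had log2 fold changes of -0.91 and -0.59 (adjusted p by edgeR = 7.51e-06 and 2.65e-05). S100a10 stood at 258 ± 15.2 and 258 ± 16.8 CPM and S100a11 at 53.2 ± 3.30 and 49.5 ± 4.80 CPM (SD, n = 3), differences that did not pass (adjusted p by edgeR = 0.984 and 0.449).

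Genes for assembling the envelope and the cell contacts around it lie elsewhere in the genome. Of 34 such genes 12 were tested, 5 were higher and 1 was lower (median log2 fold change 0.38), beside 21.6% and 21.5% of all genes tested. Of the 5 that were higher 3, Serpinb2, Pkp1 and Aloxe3, needed the erastin libraries to pass the filter. Cdsn, the corneodesmosome adhesion protein, rose from 35.1 ± 5.81 to 71.3 ± 2.36 CPM (n = 3, ± SD). The log2 fold change was 1.02 (SE 0.11; adjusted p by edgeR = 4.75e-06). Serpinb2, a protease inhibitor that can be joined to the envelope, rose from 0.672 ± 0.326 to 7.52 ± 1.47 CPM, which is 3.51 on a log2 scale (SE 0.42; adjusted p by edgeR = 6.97e-06), with 13, 6 and 9 reads against 172, 145 and 113. Cstb, the protease inhibitor cystatin B, had a log2 fold change of 0.35 (adjusted p by edgeR = 0.0042). Jup, which encodes the junction protein plakoglobin, fell from 97.7 ± 12.2 to 52.8 ± 4.2 CPM, which is -0.89 on a log2 scale (SE 0.10; adjusted p by edgeR = 6.99e-06).

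The cross-linking enzymes of the epidermis were near or at 0, and are named here after their values were seen. Tgm1 had 2, 3 and 0 reads with DMSO and 4, 0 and 1 with erastin. Tgm3 had 0 reads in every library, and Tgm5 had 2 reads in all. Krt1, the keratin of the suprabasal layers, had 0 reads in every library.

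Transcription factors and other regulators known from epidermal differentiation or from the control of these genes were examined as a list of 31. The list includes Notch1, Kdm6b and Smarca4, which are not transcription factors. Of 24 tested, 16 were higher and 3 lower (median log2 fold change 0.72), beside 21.6% and 21.5% of all genes tested. The list was chosen with earlier results of these data known, so nothing about such regulators as a set is read from this count. Fosb, among those higher, needed the erastin libraries to pass the filter. Fosl1, an AP-1 subunit, rose from 9.66 ± 1.61 to 80.6 ± 16.7 CPM (n = 3, ± SD). The log2 fold change was 3.07 (SE 0.16; adjusted p by edgeR = 3.96e-09). Atf3, a stress-induced factor that pairs with AP-1 proteins, had a log2 fold change of 4.59 (SE 0.27; adjusted p by edgeR = 7.25e-09). Klf4, a factor needed for the skin barrier, rose from 107 ± 11.4 to 281 ± 7.64 CPM, which is 1.39 on a log2 scale (SE 0.08; adjusted p by edgeR = 1.27e-08). Nfe2l2, which encodes NRF2, the activator of antioxidant genes, had a log2 fold change of 0.95 (SE 0.08; adjusted p by edgeR = 1.96e-07).

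Ahr, the aryl hydrocarbon receptor, fell from 96.4 ± 4.23 to 39.3 ± 9.89 CPM (n = 3, ± SD). The log2 fold change was -1.29 (SE 0.13; adjusted p by edgeR = 2.5e-06). Hopx and Maf had log2 fold changes of -1.70 and -0.53 (adjusted p by edgeR = 0.00359 and 0.0149). Maf did not pass without DMSO replicate 2 or without erastin replicate 1, where its edgeR adjusted p-value reached 0.0831 (range over 13 alternatives 0.00526 to 0.0831). The factors that define the keratinocyte lineage were barely counted and could not be tested. Trp63 (p63, the master regulator of stratified epithelia) had 7, 3 and 1 reads with DMSO and 2, 1 and 7 with erastin. Grhl3 had 3, 1 and 2 against 3, 19 and 0, Zfp750 had 1, 9 and 3 against 6, 24 and 7, and Ovol1 had at most 2 reads in any library.

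**Figure D3:**
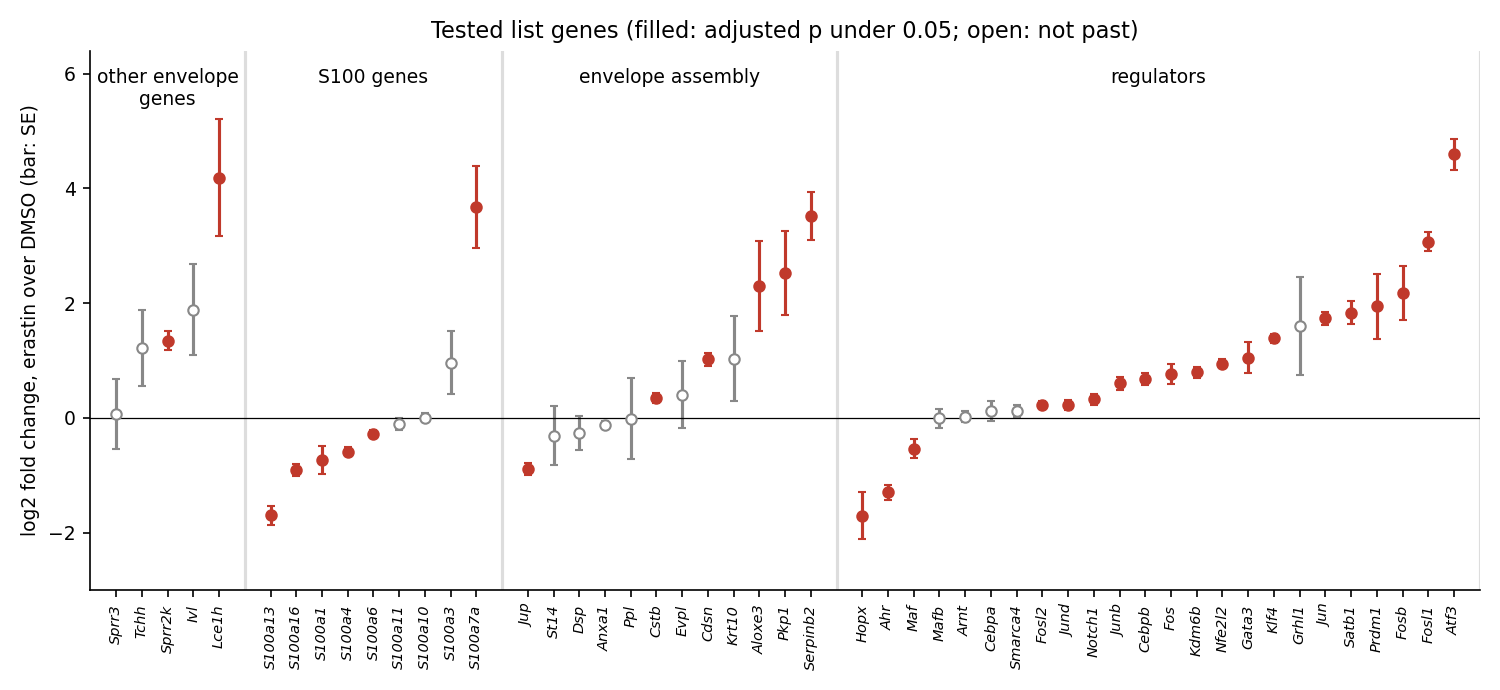
Log2 fold change of erastin over DMSO with its SE for the list genes that could be tested, ordered within each list; filled red points passed at an adjusted p-value under 0.05 (edgeR), open grey points did not. The regulators run from -1.70 for Hopx to 4.59 for Atf3, and Lce1h (4.19) and S100a7a (3.68) are the highest points of the envelope and S100 lists.

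The labelled cell type was checked against markers. All 15 fibroblast markers had reads in every library, with summed levels of 39740 to 43830 CPM with DMSO and 29700 to 31310 CPM with erastin. Of them 11 were lower and 0 higher at an adjusted p-value under 0.05 (edgeR; 0 higher at an unadjusted p-value under 0.05 and 0 with DESeq2), beside 21.5% lower and 21.6% higher among all genes tested. In bulk samples fewer cells of a type and less RNA per cell cannot be told apart.

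The 20 keratinocyte markers summed to 32.0 to 43.8 CPM with DMSO and 25.9 to 44.5 CPM with erastin, ranges that overlap. Much of the sum came from Perp, which stood at 20.0 to 29.2 CPM with DMSO and 8.56 to 14.2 CPM with erastin. Without Perp, left out after the values were seen, the other 19 summed to 17.4, 14.6 and 12.0 CPM in DMSO replicates 1 to 3 and 31.8, 26.0 and 17.4 CPM in erastin replicates 1 to 3. Erastin replicates 1 and 2 thus lay above all DMSO libraries, and erastin replicate 3 was level with DMSO replicate 1. Its part in the values of the 5 envelope genes was not tested. Of the 20, 9 had fewer than 10 reads over all 6 libraries. Krt5 had 1 read and Krt14 had 3 reads in all, and Krt1 and Krt15 had 0. Of the 5 markers tested Sbsn was higher and Perp lower. Sbsn, which encodes suprabasin, had a log2 fold change of 0.86 (SE 0.27; adjusted p by edgeR = 0.0172; 0.00103 to 0.114 over 13 alternatives) and did not pass without DMSO replicate 3, erastin replicate 1 or erastin replicate 2. This list shares Lor, Ivl and Flg with the envelope genes, Krt1 and Krt10 with the assembly genes and Trp63 with the regulators.

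Markers of other cell types had low summed levels, and reads from such cells and low expression in the fibroblasts cannot be told apart here. The 10 simple epithelium markers summed to 17.1 to 24.7 CPM with DMSO and 17.7 to 31.8 CPM with erastin, and Epcam had at most 14 reads in a library. The 8 macrophage markers summed to 26.5 to 48.4 CPM with DMSO and 31.2 to 63.6 CPM with erastin, with all 8 detected in every library. The 8 endothelial markers summed to 7.82 to 10.4 CPM with DMSO and 16.3 to 19.8 CPM with erastin, groups that did not overlap. Among single genes tested, 26.7% had all 3 erastin libraries above all 3 DMSO libraries. Of the 5 endothelial markers tested, Tek and Kdr were higher and Erg lower, beside 21.6% and 21.5% of all genes tested. Erg passed the filter on low counts only through its DMSO libraries. Of the 534 genes that did so, 0 were higher and 35.4% lower. Pecam1 had at most 15 reads in any library. Their part in the envelope values was not tested.

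**Figure D4:**
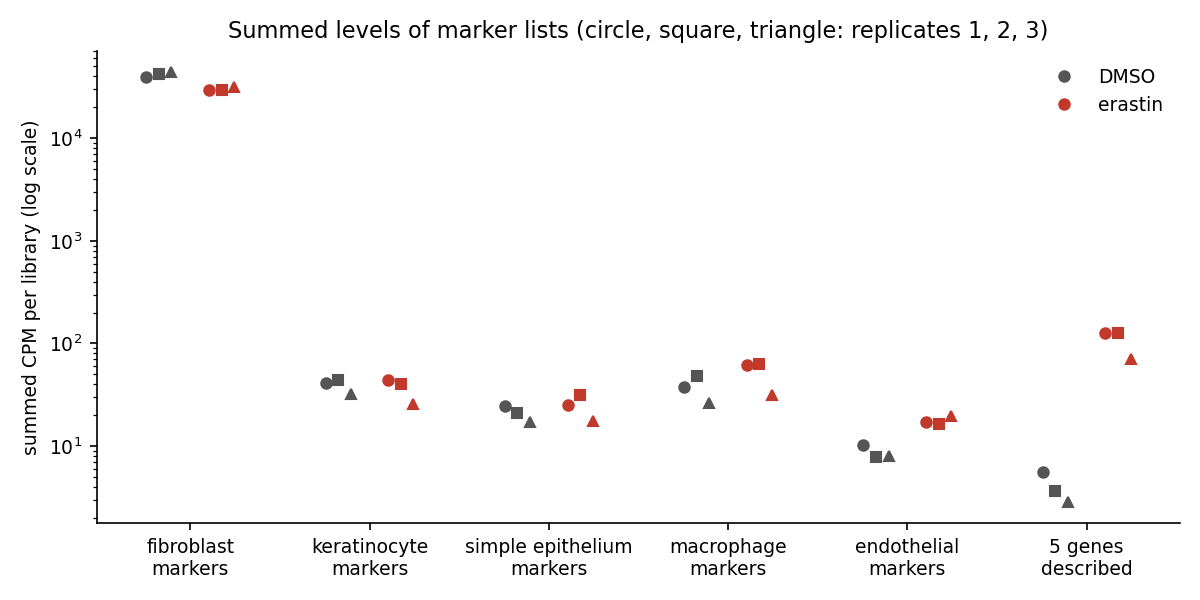
Summed CPM of each marker list and of the 5 genes described in every library, on a logarithmic axis; grey is DMSO, red is erastin, and circles, squares and triangles are replicates 1, 2 and 3. The 5 genes, chosen for rising, stand at 2.88 to 5.67 CPM with DMSO and 70.0 to 127 CPM with erastin, and the keratinocyte sum, which includes Perp, at 32.0 to 43.8 and 25.9 to 44.5 CPM.

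Erastin replicate 3 was the lowest erastin library for all 5 genes, at 34.4% to 74.9% of the erastin mean. It was the lowest of the 3 for 45.6% of the 3024 genes called higher, for 35 of the 51 genes with a log2 fold change of at least 3 (68.6%) and for 36.8% of all genes tested. Sprr2k, Lce1h and S100a7a were lowest there too, as were Fosl1, Atf3, Klf4, Nfe2l2 and Serpinb2. Cdsn was instead lowest in erastin replicate 2 and Cstb in erastin replicate 1. The keratinocyte marker sum was also lowest in replicate 3, in both groups, at 32.0 CPM with DMSO and 25.9 CPM with erastin. So were the macrophage sum, at 26.5 and 31.2 CPM, and the simple epithelium sum, at 17.1 and 17.7 CPM. The endothelial sum was instead highest in erastin replicate 3, at 19.8 CPM. The fibroblast sum was highest in replicate 3 of both groups, at 43830 CPM with DMSO and 31310 CPM with erastin. The part of these differences in the envelope values was not tested.

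Over the 6 libraries, the genes whose profile came closest to that of Crct1 were Gdf15, Xirp2, Atf3, Fgf21 and Hmox1. Likeness was the root-mean-square difference of log2 CPM after each profile was centred on its mean, over the 11260 tested genes that averaged 50 reads or more per library. It was 0.421 for Gdf15, a secreted stress cytokine, 0.453 for Xirp2, an actin-binding protein of muscle, 0.505 for Atf3, 0.511 for Fgf21, a metabolic hormone, and 0.547 for Hmox1, a heme-degrading enzyme. By the same measure, Lce1g stood at 0.601, Lce1l at 0.636, Kprp at 0.661 and Sprr1a at 0.832 from Crct1, although Lce1l and Kprp averaged fewer than 50 reads. All profiles come from the same 6 libraries. The measure takes in the difference between the groups, on which the 5 genes were chosen, so closeness largely reflects a rise of similar size. Log2 CPM was computed with a prior count of 2, which shrinks the rise of genes with few DMSO reads. Xirp2, with 1, 0 and 0 DMSO reads, had a fitted log2 fold change of 7.875, against 4.93 for Crct1.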

How the data were processed

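RNA was measured in 3 DMSO and 3 erastin libraries of MEFs. Per the labels' protocols, total RNA was freed of ribosomal RNA, fragmented and made into Ion Total RNA-seq libraries sequenced on an Ion Proton. The authors deposited whole-number read counts per gene with no normalization; per the submitters' processing notes, mm10, HTSeq 0.9.1 and SAMtools were used. The aligner, the annotation and the counting settings, strand included, are not given in the sources used here. Identifiers were matched without version to GENCODE M21; 42462 of 43346 (98.0%) had a symbol.

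Counts were analysed with edgeR 4.0.16 in R 4.3.3: filterByExpr at its defaults (minimum count 10, total 15; 14000 genes kept), TMM factors, and glmQLFit and glmQLFTest with treatment as the only term. P-values were adjusted by Benjamini-Hochberg over all genes tested, with a threshold of 0.05. The fit was tested on simulated data. Depth ran from 13333911 to 20509970 counts per library. The members and gene lists were chosen with earlier results of these data known. Genes named were the members, their neighbours, the 3 list genes with the smallest p-value in each direction, 8 regulators and the 5 profiles most like Crct1; every other gene named, markers included, was chosen after its values were seen. Alternatives were RLE, upper-quartile and total-count scaling, no filter, at least 1 CPM in 3 libraries, the replicate number as a block, leaving out each library, and DESeq2 1.42.0.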

Additional observations from a re-analysis of the deposited data

How the results depend on the processing

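Numbers of list genes past the threshold stayed within 1.5 times their reported values in most alternatives. For envelope genes other than the 5 described, 2 were higher, 6 without a filter on low counts (Lce1f, Sprr1b, Sprr2h and Ivl besides Sprr2k and Lce1h) and 4 with DESeq2; more genes are tested without the filter. Leaving out 1 library gave 2 to 3. For keratinocyte markers 1 was higher, 2 without the filter, and 0 to 3 when 1 library was left out: 0 without DMSO replicate 3, erastin replicate 1 or erastin replicate 2, 2 without DMSO replicate 1 and 3 without erastin replicate 3. The cause was not tested. All genes higher ran from 2402 to 3456 and all genes lower from 2400 to 3377. With total count scaling 3456 were higher and with upper-quartile factors 3377 were lower. With the replicate number as a block, 2 other envelope genes, 1 S100 gene, 5 assembly genes and 16 regulators were higher. No list count changed by over 1.5 times with the block. Deviations from the group means had correlations of -0.0055 to 0.04 between equally numbered libraries. With 3 libraries per group this cannot settle whether equal numbers mark a shared culture. Across the alternatives Crct1 ran from 4.78 to 5.16 and Sprr1a from 3.25 to 4.57 on the log2 scale. Per kilobase of the longest transcript Crct1 stood at 111 against 101 CPM per kilobase of merged exons, and the order of the 5 genes was the same. Depth limits Lce1g, Lce1l and Kprp, which had 4, 0 and 3 reads over the 3 DMSO libraries.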

Other observations

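Several envelope genes of the complex with few reads, named after their values were seen, were counted mainly with erastin. Prr9, a proline-rich gene, had 0, 4 and 0 reads with DMSO and 11, 15 and 2 with erastin. Sprr2h had 0 reads with DMSO and 2, 8 and 6 with erastin, while Sprr2b had 0, 0 and 6 reads against 2, 0 and 6. Of the 40 other envelope genes that the filter removed, 15 had reads with erastin and none with DMSO, 8 of them with a single read, and 1, Flg, had reads with DMSO and none with erastin. Of these 40 genes, 23 had a read at all, and 65.2% of those were read only with erastin. The share was 25.8% among the 12801 untested genes with a read in the whole table. For genes read only with DMSO the shares were 4.35% and 18.9%. Of the 3307 untested genes in the whole table read only with erastin, 1848 had a single read.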
